A study of Homo sapiens with 4 samples.

Results

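The Toll-like receptor (TLR) genes TLR1 to TLR9 and MYD88, the adaptor that most of these receptors share, were described in MV4-11 cells upon CEBPG knockdown. The 10 genes were taken by their symbols from the expression table, and all 10 were listed, with 15 RefSeq transcripts in all. The table gave 16490 genes with values, where each of the 164 transcripts without a symbol counted as a gene. MV4-11 is an established human acute myeloid leukemia (AML) cell line of monocytic type. RNA-seq gave 2 libraries from control cells with the hairpin sh-NC and 2 from cells with sh-CEBPG#3, a hairpin against CEBPG, a basic leucine zipper transcription factor. Both hairpins were delivered by lentivirus and cells were selected with puromycin, a single hairpin against CEBPG was sequenced, and whether libraries within a group came from separate infections is not given in the sources used here. P-values therefore measure only the spread between these libraries, which may be technical.

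TLRs are receptors of innate immunity that recognise molecules of microbes. TLR1, TLR2, TLR4, TLR5 and TLR6 act mainly at the cell surface, where they detect lipoproteins, lipopolysaccharide and flagellin, whereas TLR3, TLR7, TLR8 and TLR9 detect nucleic acids in endosomes. On binding a ligand, a receptor recruits adaptors through its TIR domain. MYD88 serves all of these receptors except TLR3, which uses TICAM1 (TRIF), and it assembles the kinases IRAK4, IRAK1 and IRAK2, from which the signal passes to NF-kB and interferon regulatory factors. Monocytes and macrophages are among the cells with the widest range of TLRs.

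Expression was deposited as FPKM, a read count scaled to transcript length and to the mapped reads of the library, and the transcripts of a gene were summed in each library. FPKM totals ranged from 364353 to 389766, and the read depth of the libraries is unknown. Changes are given as log2 fold changes of FPKM + 1, sh-CEBPG#3 against sh-NC, from limma over the 12142 genes averaging 0.5 FPKM or more over the libraries, and this scale understates the change of genes with low values. The targeted gene CEBPG measured 30.4 and 33.6 FPKM in control cells against 19.2 and 17.1 FPKM after knockdown, with a log2 fold change of -0.78 (standard error 0.09, adjusted p = 8.88e-05 in limma). All 9 markers of the line, such as CD33 and CSF1R, had at least 3.29 FPKM in every library. Their summed level was 827 and 904 FPKM in sh-NC cells and 3511 and 3344 FPKM in sh-CEBPG#3 cells, mostly from LYZ. At an adjusted p under 0.05 in limma, 5 of the 9 were higher and 2, HOXA9 and MEIS1, lower. Of all genes tested, 18.5% were higher and 23.8% lower. Of 14 markers of other cell types, 6 had values. The epithelial keratins KRT8 and KRT18 summed to 12.1 and 12.9 FPKM in sh-NC cells and 16 and 14.8 FPKM in sh-CEBPG#3 cells. KRT8 went from 2.29 and 2.35 to 6.26 and 6.19 FPKM (log2 fold change 1.12, adjusted p = 1.55e-05 in limma). KRT18 went from 9.77 and 10.6 to 9.75 and 8.57 FPKM (log2 fold change -0.14, adjusted p = 0.261 in limma). The summed B cell markers were between 0.995 and 1.52 FPKM, and the erythroid and stromal ones were each at most 0.0781 FPKM. The part of these shifts in the results below was not tested.

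The members lie in clusters in part (RefSeq positions, GRCh38.p14). TLR1 (chromosome 4, 38787569 to 38805644) and TLR6 (chromosome 4, 38822897 to 38868390) are 17252 bases apart and lie beside TLR10, a further family member. TLR2 (153684280 to 153710637) and TLR3 (186069156 to 186088073) are also on chromosome 4. TLR7 (chromosome X, 12867072 to 12890361) and TLR8 (chromosome X, 12906620 to 12923169) are 16258 bases apart. TLR9 (52221080 to 52225645) and MYD88 (38138661 to 38143022) are on chromosome 3, TLR4 is on chromosome 9 (117704403 to 117724735) and TLR5 on chromosome 1 (223109404 to 223143248). The proteins of TLR1 and TLR6 are 68.9% identical, and 8.49% of the 50-base windows of the TLR1 transcript also occur in that of TLR6 (GENCODE 44 canonical transcripts). In the other direction 3.58% of the TLR6 windows occur in the TLR1 transcript. The levels of both are uncertain, since how reads matching both genes were counted is not given in the sources used here. TLR7 and TLR8, with 43.3% identical proteins, share no such window.

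The 250 bases before the gene start are shown for the members that differed most between the groups, MYD88, TLR2 and TLR8, and for TLR9, which did not pass the test (RefSeq, GRCh38.p14, each on the strand of its gene, all plus except TLR9). They span chr3:38138411-38138660 for MYD88, chr4:153684030-153684279 for TLR2, chrX:12906370-12906619 for TLR8 and chr3:52225646-52225895 for TLR9. Capitals mark matches to the motifs searched.
MYD88: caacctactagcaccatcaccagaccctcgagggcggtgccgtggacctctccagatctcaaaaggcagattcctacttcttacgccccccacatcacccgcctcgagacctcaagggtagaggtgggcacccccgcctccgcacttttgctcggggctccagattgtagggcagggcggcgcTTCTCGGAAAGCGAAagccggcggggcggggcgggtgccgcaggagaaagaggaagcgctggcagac
TLR2: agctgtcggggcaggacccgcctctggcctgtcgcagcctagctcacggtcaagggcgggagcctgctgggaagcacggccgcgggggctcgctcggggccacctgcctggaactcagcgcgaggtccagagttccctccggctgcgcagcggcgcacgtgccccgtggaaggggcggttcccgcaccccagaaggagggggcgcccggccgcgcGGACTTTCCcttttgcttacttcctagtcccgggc
TLR8: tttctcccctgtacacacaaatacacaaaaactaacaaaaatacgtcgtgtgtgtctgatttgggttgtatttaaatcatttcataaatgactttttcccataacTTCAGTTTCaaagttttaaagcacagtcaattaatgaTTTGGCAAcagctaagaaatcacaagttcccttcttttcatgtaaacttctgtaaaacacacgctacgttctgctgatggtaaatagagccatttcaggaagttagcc
TLR9: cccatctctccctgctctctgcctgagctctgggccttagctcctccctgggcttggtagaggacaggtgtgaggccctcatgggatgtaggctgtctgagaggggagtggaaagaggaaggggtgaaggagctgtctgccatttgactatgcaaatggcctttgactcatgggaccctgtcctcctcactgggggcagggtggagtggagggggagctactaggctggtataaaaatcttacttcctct

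Motifs were searched on both strands in these windows for the 8 members with a promoter in the RefSeq table, TLR1 and TLR7 having none there. The window of TLR6 (chr4:38856818-38857067, minus strand) lay inside the gene span given above and not before its start. For TLR6 the bases before the start of that span were therefore not searched. MYD88 held the letters GAAAGCGAA, a match to GAAANNGAA (the core of the interferon-stimulated response element, bound by interferon regulatory factors), starting 61 bases before the gene start. It overlapped TTCTCGGAA, a match to the STAT motif GAS (TTCNNNGAA), starting 67 bases before the start. TLR2 held GGACTTTCC, one of the kappaB words searched (GGACTTTCC and GGAATTTCC), starting 35 bases before the start. TLR8 held the interferon-stimulated response element core on the other strand, as TTCAGTTTC, and TTTGGCAA, a match to the C/EBP word TTGCNNAA. TLR3 also held the C/EBP word and 2 matches to GAS, and TLR4, TLR5, TLR6 and TLR9 held none of the motifs. The CEBP-ATF composite motif TGATGNAAT was found in 0 of the 8 windows. Among all 35116 promoters, 6.88% held the core of the interferon-stimulated response element, 6.57% GAS, 9.05% the C/EBP word, 0.888% the composite motif and 0.743% a kappaB word. These matches describe letters in the windows and no binding was measured.

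Upon CEBPG knockdown, MYD88 and the lipoprotein receptor TLR2 rose, and TLR9, TLR1 and TLR6 did not pass the test. TLR8 was near 0 in sh-NC cells and close to 1 FPKM in sh-CEBPG#3 cells, too low to enter the test. TLR3, TLR4, TLR5 and TLR7 were below 0.5 FPKM in every library. Of the 10 genes, 5 passed the filter on low values (TLR1, TLR2, TLR6, TLR9 and MYD88), each of them above 0.5 FPKM in both groups. Of these 5, 2 were higher and 0 lower at an adjusted p under 0.05 in limma with Benjamini-Hochberg adjustment, where 18.5% of all genes tested were higher and 23.8% lower. The study's cutoffs were a log2 fold change beyond 1 in either direction and p under 0.05 without adjustment. The study applied them to DESeq2 results, but here they were applied to limma on log2(FPKM + 1), so the counts cannot be compared. By these cutoffs 1 of the 5 was higher (MYD88) and 0 lower, where 2.36% and 1.05% of all genes tested were. Both sh-CEBPG#3 libraries lay above both sh-NC libraries for 4 of the 5, where 31.5% of all genes did so and 40.2% lay below. The median log2 fold change of the 5 was 0.23, against -0.04 for all genes tested. For a single gene, 2 libraries against 2 allow no two-sided exact permutation p below 0.333, so the p-values given here rest on the variance that limma shares between genes.

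MYD88, the adaptor, measured 11.5 and 10.6 FPKM in sh-NC cells, against 24.5 and 23.1 FPKM in sh-CEBPG#3 cells. As the cells were measured in bulk, more cells expressing the gene and more RNA per cell cannot be told apart, here and below. Both knockdown libraries were thus above both controls, by more than the spread within either group. The means were 11.0 ± 0.592 FPKM and 23.8 ± 0.951 FPKM (SD, n = 2 each), or 216% of the control level. On the log2 scale MYD88 rose by 1.04 (standard error 0.08, adjusted p = 8.68e-06 in limma). It lay close to the threshold of 1 and was 0.99 without sh-NC replicate 2 and 0.99 for its most abundant transcript alone, with an adjusted p under 0.05 in limma in both.

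The increase of MYD88 was carried by transcript NM_002468, which had 11.3 and 9.72 FPKM in sh-NC cells and 22.3 and 21.2 FPKM in sh-CEBPG#3 cells. This transcript made up 95.4% of the MYD88 level in sh-NC cells and 91.4% in sh-CEBPG#3 cells, taking the libraries of a group together. The next, NM_001172568, had 0 and 0.632 FPKM in sh-NC cells and 1.02 and 1.31 FPKM in sh-CEBPG#3 cells. NM_001172567 was between 0.123 and 0.575 FPKM in the 4 libraries. NM_001172569 was listed at 0 in both sh-NC libraries and reached 0.58 and 0.173 FPKM after knockdown. The share of NM_002468 was 98.9% and 91.6% in sh-NC cells, against 91.1% and 91.8% in sh-CEBPG#3 cells, so the shift in share between groups was smaller than the difference between the controls.

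**Figure D1:**
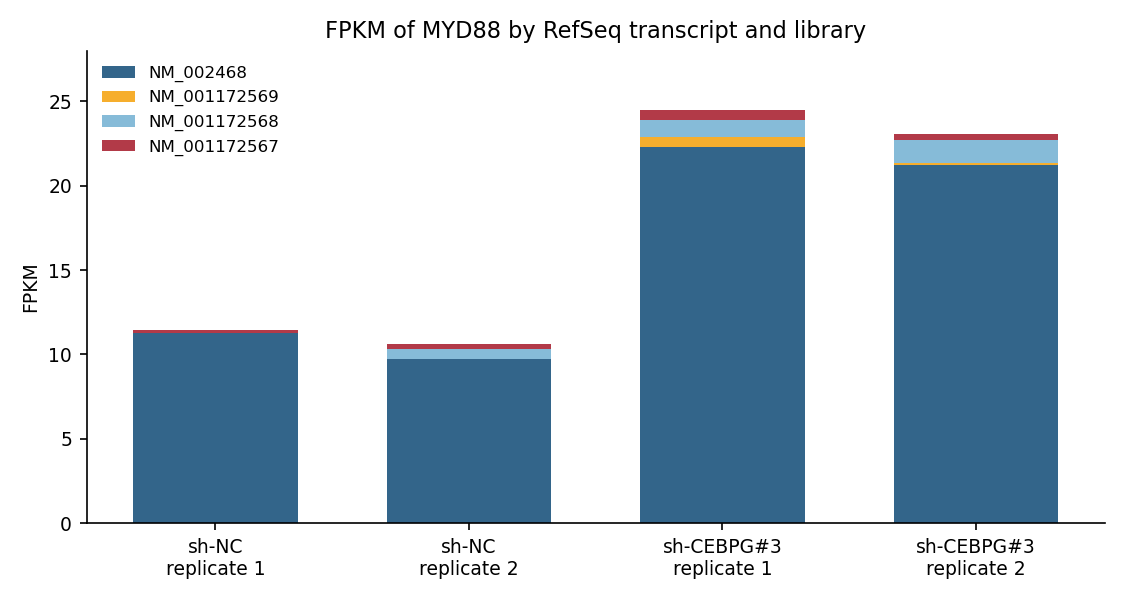
FPKM of MYD88 (y axis) stacked by RefSeq transcript in each of the 4 libraries (x axis). NM_002468 makes up most of every bar, between 91.1% and 98.9%, and the bars of the sh-CEBPG#3 libraries reach 24.5 and 23.1 FPKM.

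The other adaptors with a TIR domain or a related role were less uniform in level. TICAM1, the adaptor of TLR3 and of internalised TLR4, had 4.57 and 5.5 FPKM in sh-NC cells and 7.87 and 7.94 FPKM in sh-CEBPG#3 cells (log2 fold change 0.57, standard error 0.10, adjusted p = 0.00157 in limma). PIK3AP1 (BCAP), which links TLRs to phosphoinositide 3-kinase, was the most abundant adaptor, with 46.8 and 52.3 FPKM against 69.3 and 67.3 FPKM (0.46, standard error 0.08, adjusted p = 0.00113 in limma). Of the 5 adaptors of this list, 2 passed the filter and both were higher, where 18.5% of all genes tested were. TIRAP, which bridges MYD88 to TLR2 and TLR4, was at most 0.166 FPKM in any library and its groups overlapped. TICAM2, which bridges TICAM1 to TLR4, had 0.544 and 0.745 FPKM in sh-NC cells and 0.325 and 0.289 FPKM in sh-CEBPG#3 cells. SARM1 had 0.345 and 0.293 FPKM in sh-NC cells and 0.242 and 0.265 FPKM in sh-CEBPG#3 cells. For TICAM2 and SARM1 both sh-CEBPG#3 libraries thus lay below both sh-NC libraries. TIRAP, TICAM2 and SARM1 were below the filter, and without the filter TICAM2 was lower (log2 fold change -0.33, adjusted p = 0.0462 in limma), but not at a pseudocount of 0.1 in addition (adjusted p = 0.0644 in limma). This last setting, also used below, was chosen after seeing the data.

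Among the surface receptors, TLR2, which detects bacterial lipoproteins, had 3.5 and 3.8 FPKM in sh-NC cells and 7.04 and 5.95 FPKM in sh-CEBPG#3 cells. The groups did not overlap, and the 2 knockdown libraries were farther apart than the controls. The means were 3.65 ± 0.211 FPKM and 6.49 ± 0.765 FPKM (SD, n = 2 each), or 178% of the control level. On the log2 scale TLR2 rose by 0.69 (standard error 0.11, adjusted p = 0.00063 in limma).

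TLR1 and TLR6 form heterodimers with TLR2. TLR1 had 1.81 and 1.41 FPKM in sh-NC cells and 2.13 and 1.9 FPKM in sh-CEBPG#3 cells, with a log2 fold change of 0.21 (95% interval -0.07 to 0.49, adjusted p = 0.205 in limma). TLR6 had 1.63 and 1.7 FPKM against 2.3 and 1.99 FPKM, with a log2 fold change of 0.23 (95% interval -0.03 to 0.50, adjusted p = 0.134 in limma). Neither passed the test, although both knockdown libraries were above both controls for each gene. The TLR2 estimate of 0.69 lies outside both intervals, but its own 95% interval (0.45 to 0.92) overlaps them. Whether TLR1 and TLR6 changed less than TLR2 was not tested. The level of TLR2 relative to TLR1 was 1.93 and 2.69 in sh-NC cells, against 3.3 and 3.14 in sh-CEBPG#3 cells, and relative to TLR6 it was 2.15 and 2.23 against 3.06 and 3, as ratios of FPKM. The difference in these ratios was not tested.

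The remaining surface receptors were at low levels. TLR4, the lipopolysaccharide receptor, had 0.312 and 0.41 FPKM in sh-NC cells and 0.335 and 0.292 FPKM in sh-CEBPG#3 cells, and the groups overlapped. Its values were divided differently between 2 transcripts. In the sh-NC libraries NM_003266 held all of the TLR4 level, whereas NM_138554, listed at 0 there, held 37.6% and 98.1% of it in the sh-CEBPG#3 libraries. At this level the division between transcripts rests on very few reads, whose number is unknown. TLR5, the flagellin receptor, was listed at 0 in both sh-NC libraries and reached 0.0119 and 0.0232 FPKM after knockdown. TLR10 was at most 0.0234 FPKM in any library.

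Of the coreceptors of the surface TLRs, CD36, a scavenger receptor that assists TLR2 with TLR6, rose. It had 1.54 and 1.37 FPKM in sh-NC cells and 5.16 and 4.33 FPKM in sh-CEBPG#3 cells (log2 fold change 1.22, standard error 0.12, adjusted p = 2.95e-05 in limma). CD14, which hands lipopolysaccharide and lipoproteins to TLR4 and TLR2, had 0.187 and 0 FPKM in sh-NC cells and 1.09 and 0.697 FPKM in sh-CEBPG#3 cells, just below the filter with a mean of 0.493 FPKM. LY96 (MD-2), which forms the lipopolysaccharide binding complex with TLR4, had 2 and 1.19 FPKM against 2.31 and 2.02 FPKM and did not pass the test (log2 fold change 0.30, 95% interval -0.04 to 0.65, adjusted p = 0.144 in limma).

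Among the endosomal receptors, TLR9, which detects DNA with unmethylated CpG, had 1.75 and 2.18 FPKM in sh-NC cells and 2.18 and 1.68 FPKM in sh-CEBPG#3 cells. The groups overlapped almost entirely, with means of 1.97 ± 0.302 and 1.93 ± 0.354 FPKM (SD, n = 2 each). The log2 fold change was -0.02 (95% interval -0.32 to 0.28, adjusted p = 0.918 in limma), so a change as large as that of TLR2 or MYD88 lies outside the interval. Its sign was positive without sh-NC replicate 2 (0.084) and without sh-CEBPG#3 replicate 2 (0.10).

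TLR8, which detects single-stranded RNA, had 0.0329 and 0.0852 FPKM in sh-NC cells and 0.793 and 0.823 FPKM in sh-CEBPG#3 cells. Both knockdown libraries were far above both controls on the FPKM scale, and close to each other. The gene was below the filter in the mean of the 4 libraries (0.434 FPKM). When all 16490 genes were fitted without a filter, TLR8 was higher by 0.77 on the log2 scale (standard error 0.06, adjusted p = 0.00371 in limma). It was higher by 2.53 with a pseudocount of 0.1 in addition (adjusted p = 0.00469 in limma), a setting chosen after seeing the data. The size of the change thus depends on the pseudocount. Transcript NM_138636 held 100% and 97.4% of the TLR8 level in the sh-CEBPG#3 libraries. In the sh-NC libraries it held 0% and 100%, but the level there rests on very few reads, whose number is unknown.

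TLR7, the neighbour of TLR8 and also a receptor for single-stranded RNA, had 0.0244 and 0.0304 FPKM in sh-NC cells and 0.0265 and 0.0721 FPKM in sh-CEBPG#3 cells. TLR3, which detects double-stranded RNA, had 0.138 and 0.0699 FPKM against 0.0855 and 0.051 FPKM. The groups overlapped for both genes. Without the filter, TLR3, TLR4, TLR5 and TLR7 had log2 fold changes between -0.05 and 0.03, with adjusted p from 0.544 to 0.64 in limma. With a pseudocount of 0.1 in addition these were between -0.27 and 0.23, with adjusted p from 0.454 to 0.7 in limma. No change was thus detected for these 4 genes, and the values do not show that they are silent.

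The order of the levels, in FPKM, was led by MYD88 and TLR2 in both groups. In sh-NC cells TLR9 (mean 1.97 FPKM), TLR6 (1.67) and TLR1 (1.61) followed, then TLR4 (0.361), TLR3 (0.104), TLR8 (0.0591), TLR7 (0.0274) and TLR5, which was listed at 0. The libraries overlapped between TLR6 and TLR1 and between TLR3 and TLR8, and the range of TLR1 (1.41 to 1.81) also reached that of TLR9 (1.75 to 2.18). In sh-CEBPG#3 cells TLR6 (2.14), TLR1 (2.02) and TLR9 (1.93) overlapped with each other, and TLR8 (0.808) moved ahead of TLR4 (0.313). The FPKM of the 9 receptors summed to 9.2 and 9.69 in sh-NC cells, against 14.9 and 12.8 in sh-CEBPG#3 cells. TLR2 made up 38.0% and 39.2% of this sum in sh-NC cells and 47.2% and 46.6% in sh-CEBPG#3 cells.

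The genes that act with these members were taken from 6 lists of 100 genes in all, of which 90 were analysed here and 75 passed the filter. The lists were chosen with earlier results of these data known, so the shares here and below only describe them. Of the 75, 35 (46.7%) were higher and 10 (13.3%) lower at an adjusted p under 0.05 in limma, beside 18.5% and 23.8% of all genes tested, with a median log2 fold change of 0.21 against -0.04. Past an absolute log2 fold change of 1, 11 were higher and 0 lower, where 2.36% and 1.05% of all genes were. The genes CCL4 and SLC11A1 passed the filter only through the sh-CEBPG#3 group, and without them 33 of 73 were higher and 10 past a log2 fold change of 1. Without sh-CEBPG#3 replicate 1 fewer genes of the lists were higher, and without sh-CEBPG#3 replicate 2 fewer were lower. The median log2 fold change of all genes tested also moved, to -0.071 without sh-CEBPG#3 replicate 1 and to -0.005 without sh-CEBPG#3 replicate 2. The part of this shift in the counts was not tested.

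**Figure D2:**
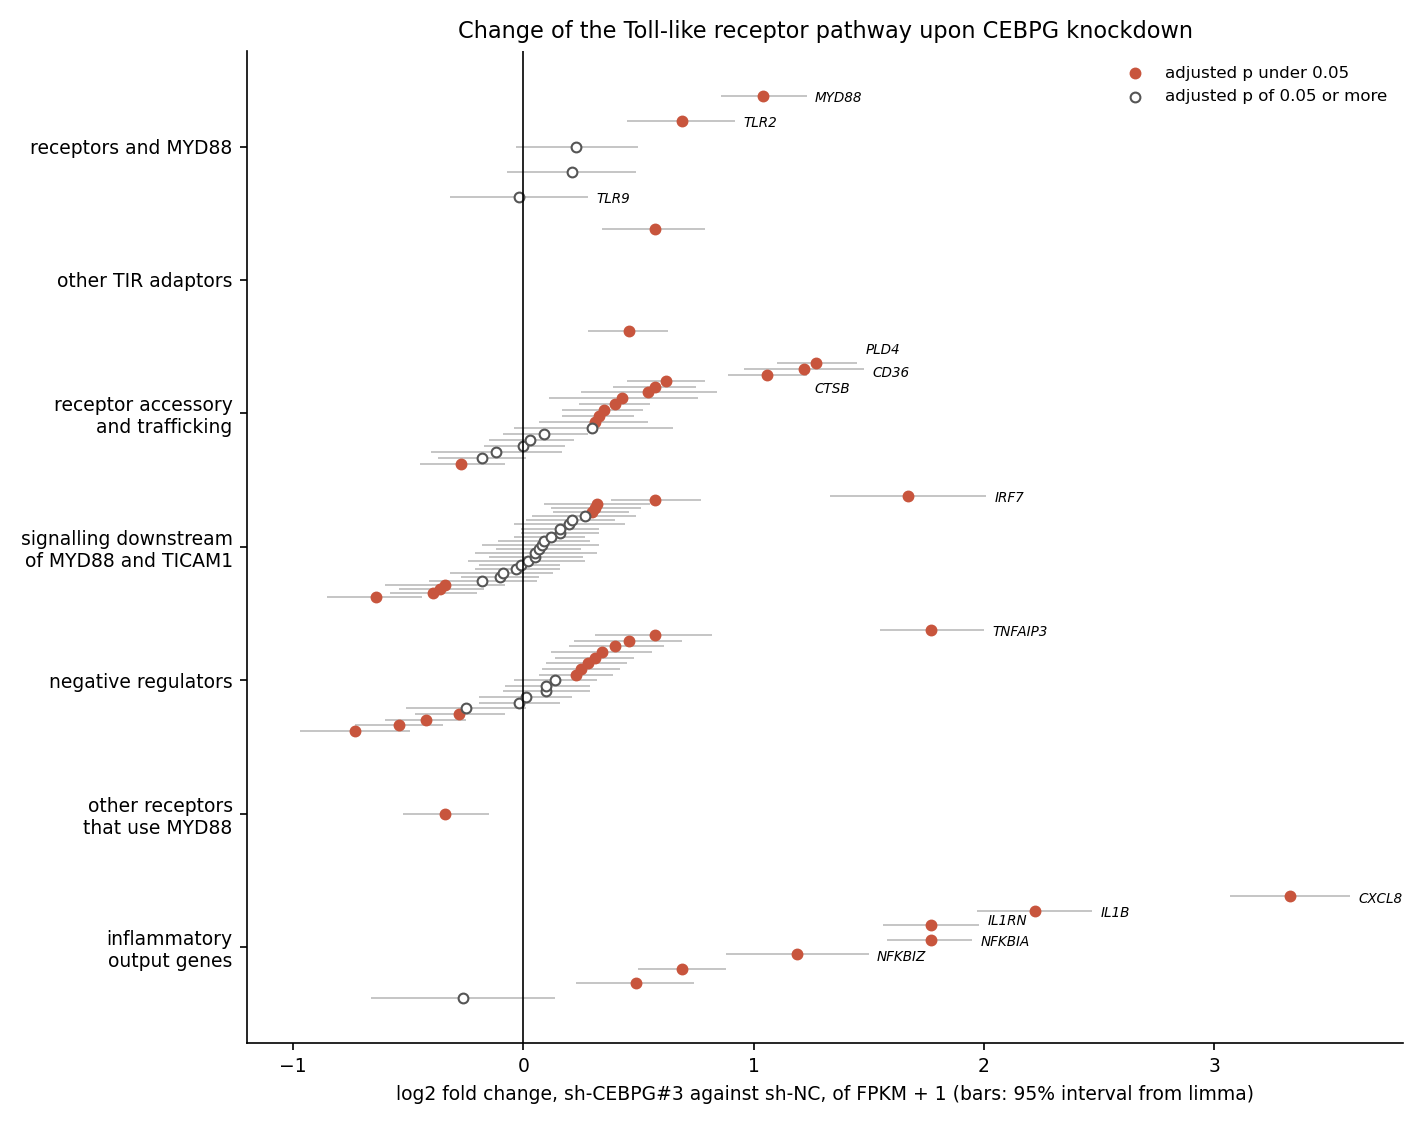
Log2 fold change of FPKM + 1 (x axis) with its 95% interval from limma for the 5 members tested and for the genes tested in each of the 6 lists (y axis); filled points have an adjusted p under 0.05 and open points do not. MYD88 (1.04) and TLR2 (0.69) are filled, TLR9 (-0.02) lies at 0, and the points farthest to the right are among the inflammatory output genes, led by CXCL8 (3.33), with CCL4 left out because it was listed at 0 in sh-NC cells.

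Genes for receptor accessory and trafficking proteins were higher for 11 of the 18 tested (61.1%, beside 18.5% of all genes) and lower for 1 (5.56%, beside 23.8%), and 6 did not pass the test (median log2 fold change 0.34). The 11 include SLC11A1, a metal ion transporter of phagosomes, which passed the filter only through the sh-CEBPG#3 group (0.446 and 0.503 against 1.15 and 1.14 FPKM), and without it 10 of 17 were higher. PLD4 rose most, from 52.1 and 58.4 to 139 and 131 FPKM (log2 fold change 1.27, adjusted p = 1.77e-06 in limma). PLD4 and its relative PLD3 are endosomal exonucleases that degrade ligands of TLR9 and TLR7, and PLD3 went from 33.1 and 36.7 to 53.4 and 51.1 FPKM (0.57, adjusted p = 0.000323 in limma). The lysosomal proteases CTSB (1.06, adjusted p = 4.69e-06 in limma) and CTSS (0.62, adjusted p = 0.000178 in limma), which can cleave endosomal TLRs, were also higher. UNC93B1, which carries TLR3, TLR7, TLR8 and TLR9 to endosomes, had 78.6 and 84.4 FPKM in sh-NC cells and 110 and 98.3 FPKM in sh-CEBPG#3 cells (0.35, adjusted p = 0.00593 in limma). HSP90B1 (gp96), a chaperone that TLRs need to fold, was higher by 0.40 (adjusted p = 0.00141 in limma), while its cochaperone CNPY3 did not pass (-0.18, adjusted p = 0.109 in limma). CXorf21 (TASL), an adaptor of the endosomal receptors for IRF5, was the gene that fell, from 26.2 and 28.2 to 23.7 and 21.3 FPKM (-0.27, adjusted p = 0.0286 in limma). The number of higher genes was 6 without sh-CEBPG#3 replicate 1. CXorf21 lost its call without sh-NC replicate 2, without sh-CEBPG#3 replicate 2, with the most abundant transcript, without a filter, without a trend and with the replicate block. The number of lower genes was 2 without sh-NC replicate 1, with quantile normalization and with equal FPKM totals.

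Downstream of MYD88 and TICAM1, the kinases IRAK4, IRAK1 and MAP3K7 and the ubiquitin ligase TRAF6 did not pass the test. Of 26 tested genes of the signalling list, 5 were higher, 4 lower and 17 did not pass, shares of 19.2% and 15.4% beside 18.5% and 23.8% for all genes. IRAK4, the first kinase recruited by MYD88, had 6.67 and 7.76 FPKM in sh-NC cells and 7 and 6.38 FPKM in sh-CEBPG#3 cells (log2 fold change -0.09, 95% interval -0.32 to 0.13, adjusted p = 0.483 in limma). IRF7, an interferon regulatory factor that MYD88 activates from endosomal receptors, rose from 1.09 and 0.598 to 4.24 and 5.46 FPKM (1.67, standard error 0.15, adjusted p = 2.43e-05 in limma). IKBKE, a kinase of interferon regulatory factors, was higher by 0.57 (adjusted p = 0.000671 in limma), and PELI3, IRF5 and UBE2V1 by 0.30 to 0.32. TAB1, an activator of the kinase MAP3K7, fell from 12 and 11.7 to 7.67 and 6.77 FPKM (-0.64, adjusted p = 0.000371 in limma), and the SRC family kinase LYN was also lower (-0.39, adjusted p = 0.00441 in limma), as were ECSIT (-0.36) and PELI2 (-0.34). The number of higher genes was 9 with quantile normalization and 2 without sh-CEBPG#3 replicate 1, and the number of lower genes was 2 with the most abundant transcript and 1 without sh-CEBPG#3 replicate 2.

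Of 19 tested negative regulators of the pathway, 9 were higher (47.4%, beside 18.5% of all genes) and 4 lower (21.1%, beside 23.8% of all genes). TNFAIP3 (A20), a ubiquitin editing enzyme induced by NF-kB that restrains it, rose most, from 5.15 and 6.38 to 22.1 and 22 FPKM (log2 fold change 1.77, standard error 0.10, adjusted p = 9.96e-07 in limma). The inhibitory receptor LILRB4 was higher by 0.57 (adjusted p = 0.00304 in limma). OTULIN, which removes linear ubiquitin chains, fell from 6.09 and 6.18 to 3.69 and 2.95 FPKM (-0.73, adjusted p = 0.000525 in limma), and RNF216, a ubiquitin ligase that acts on TLRs, fell from 9.85 and 10.5 to 6.68 and 6.68 FPKM (-0.54, adjusted p = 0.000807 in limma). The cytokine signalling inhibitor SOCS1 (-0.42) and the inhibitory TIR receptor SIGIRR (-0.28) were the other genes called lower. Without sh-CEBPG#3 replicate 1, 3 genes of the list were higher, and with the most abundant transcript of each gene 5 were higher and 2 lower.

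Of the 20 inflammatory output genes listed for the pathway, 14 were analysed here and 9 passed the filter. IL6, IL10, IL12B, CXCL3, CCL2 and CCL3 were not analysed, so the shares below leave them out. Of these 9, 8 were higher (88.9%, beside 18.5% of all genes) and 0 lower (23.8% of all genes). A log2 fold change of 1 was passed by 6 of them (2.36% of all genes). Below the filter, CCL20 was lower, with 0.321 and 0.171 FPKM in sh-NC cells and 0.143 and 0 FPKM in sh-CEBPG#3 cells. CXCL2 and IFNB1 overlapped between groups there, and PTGS2 and IL1A were higher without overlap. CCL4 passed the filter only through the sh-CEBPG#3 group, and without it 7 of 8 were higher and 5 passed a log2 fold change of 1. The chemokine gene CXCL8 rose most, from 0.618 and 0.955 to 17.9 and 15.8 FPKM (log2 fold change 3.33, standard error 0.12, adjusted p = 3.84e-08 in limma). IL1B rose from 1.02 and 0.742 to 7.76 and 7.75 FPKM (2.22, standard error 0.11, adjusted p = 4.61e-07 in limma). Its antagonist IL1RN went from 7.33 and 7.41 to 29.9 and 25.4 FPKM (1.77, adjusted p = 6.25e-07 in limma).

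Genes of this list that feed back on NF-kB rose as well. NFKBIA, the inhibitor that holds NF-kB in the cytoplasm, had 10.4 and 9.94 FPKM in sh-NC cells and 38.9 and 35.3 FPKM in sh-CEBPG#3 cells (1.77, adjusted p = 2.47e-07 in limma), and NFKBIZ rose by 1.19 (adjusted p = 0.000115 in limma). CCL4 was listed at 0 in both sh-NC libraries and reached 3.32 and 4.6 FPKM after knockdown. TNF had 1.26 and 1.39 FPKM against 2.33 and 2.18 FPKM (0.49, adjusted p = 0.00763 in limma), and the adhesion molecule gene ICAM1 rose by 0.69 (adjusted p = 0.000171 in limma). CCL5 was the gene that did not pass, with 25.1 and 28.7 FPKM against 17.2 and 28.7 FPKM (-0.26, adjusted p = 0.267 in limma), and without sh-NC replicate 1 or sh-CEBPG#3 replicate 2 it was the 1 gene of the list called lower, while its difference was positive without sh-CEBPG#3 replicate 1. The median of the 8 genes not listed at 0 in a group was 1.48. Many of these genes also respond to cytokines through the same factors, so the list is not specific to TLRs.

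**Figure D3:**
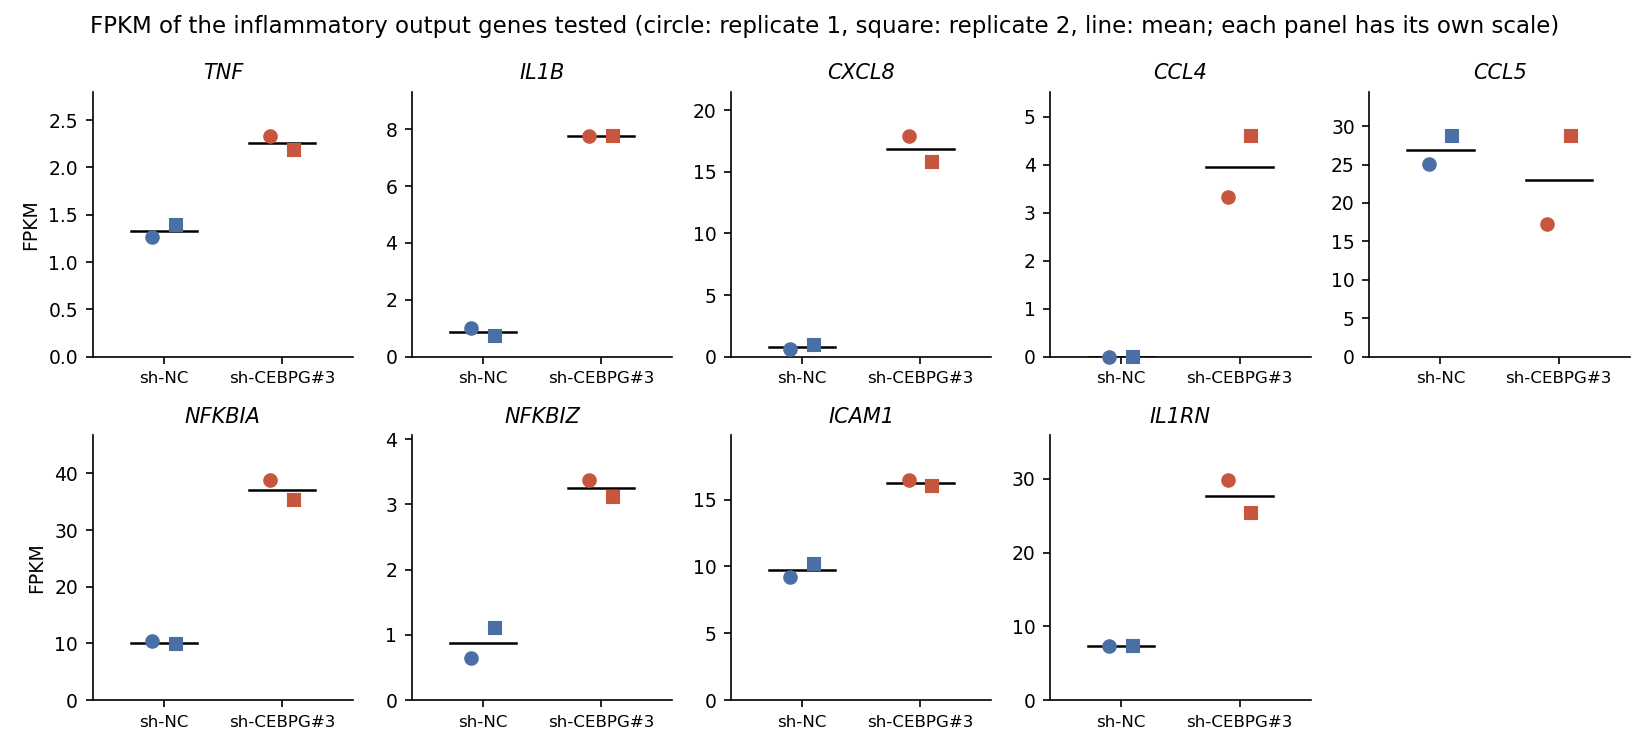
FPKM (y axis, each panel with its own scale from 0) of the 9 inflammatory output genes tested, in the 2 sh-NC and the 2 sh-CEBPG#3 libraries (x axis); circles are replicate 1, squares replicate 2 and lines the mean of each group. For every gene except CCL5 both sh-CEBPG#3 libraries lie above both sh-NC libraries, as for CXCL8 with at least 15.8 against at most 0.955 FPKM.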

How the data were processed

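The labels assign the 4 MV4-11 libraries to sh-NC or sh-CEBPG#3 (2 each). After read filtering, the authors used HISAT2 2.0.5 and hg38 (submitters' processing notes) and deposited FPKM values per RefSeq transcript. The program and annotation behind the FPKM values are not given in the sources used here. FPKM carries no counts, so depth, counting intervals and count tests are not given. Of 558 genes under 0.06 FPKM in both sh-NC libraries, at most 0.717% shared a ratio (to 3 decimals), so whole-read steps were not seen.

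Of 28780 transcripts, 199 had no value. Values were summed by symbol and genes averaging 0.5 FPKM or more were tested on log2(FPKM + 1) with limma 3.58.1 in R 4.3.3 (eBayes with a trend, no block), with Benjamini-Hochberg adjustment over all 12142 genes. The fit was also run on simulated data, with planted changes larger than those of MYD88 and TLR2, so that run does not cover changes of their size. Alternatives were other pseudocounts, filters, scalings, transcripts, no trend, a replicate block and each library left out. Members and lists were chosen with earlier results of these data known. All members are named, with every list gene past an absolute log2 fold change of 1 (unadjusted p under 0.05), otherwise the 2 to 4 largest called changes of a list, and known partners. Other named genes were chosen after their values were seen. Motifs and identities were computed with Python 3.11.15 and Biopython 1.88.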

Additional observations from a re-analysis of the deposited data

How the results depend on the processing

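The number of members called higher at an adjusted p under 0.05 in limma was 2, and 2 to 3 over the alternatives, the third being TLR8 when no filter was used, and 0 members were called lower in any of them. MYD88 had log2 fold changes of 0.99 to 1.11 over the alternatives (0.99 to 1.09 with a library left out), and TLR2 of 0.69 to 0.83 (0.58 to 0.79), each with an adjusted p under 0.05 in limma throughout. Past an absolute log2 fold change of 1 the number of members was 1, but 0 with the most abundant transcript, 2 without a filter at a pseudocount of 0.1 (MYD88 and TLR8, a setting chosen after seeing the data), and 0 to 1 with a library left out. TLR9 (-0.02) reversed to 0.084 without sh-NC replicate 2 and 0.10 without sh-CEBPG#3 replicate 2 (-0.14 to 0.10 over the libraries left out). CEBPG stayed between -0.87 and -0.70. Over the 6 lists, genes called lower went from 10 to 5 with the most abundant transcript, and leaving out a library gave 6 to 11 lower and 21 to 35 higher. Over all genes tested, 5128 were called, but 2864 with the most abundant transcript. With the replicate block 2 members were called higher (MYD88 1.04, TLR2 0.69), and no member's call changed, while over all genes 4761 were called. Same-numbered libraries share only a number (correlation of deviations 0.0606). Where a library was left out its group had 1 library, assumed to vary like the other group. FPKM without counts leaves the precision of members under 0.5 FPKM unknown. What caused these shifts was not tested.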

Other observations

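Of the 15 list genes below the filter, IRAK2, CD14 and PTGS2 were singled out after their values were seen, and all were higher. IL1A, IL18R1 and IL18RAP were also higher without overlap between groups. CCL20, TICAM2 and SARM1 were lower without overlap, and TIRAP, TLR10, LBP, LGMN, CXCL2 and IFNB1 overlapped between groups. IRAK2, a kinase that MYD88 recruits after IRAK4, measured 0.0794 and 0.0645 FPKM in sh-NC cells, against 0.52 and 0.53 FPKM in sh-CEBPG#3 cells, and without the filter its log2 fold change was 0.51 (adjusted p = 0.00543 in limma). CD14 had a log2 fold change of 0.79 without the filter (adjusted p = 0.0212 in limma). PTGS2, the inducible cyclooxygenase, had 0.331 and 0.203 FPKM against 0.605 and 0.557 FPKM, below the filter.

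Of the other receptors that signal through MYD88, 3 of 5 were analysed here. IL1RAP, the shared subunit of the interleukin-1 receptor family, had 13.5 and 14.2 FPKM in sh-NC cells and 10.9 and 10.7 FPKM in sh-CEBPG#3 cells and was lower (log2 fold change -0.34, adjusted p = 0.00816 in limma), the opposite direction to MYD88. IL18R1 had 0.278 and 0.28 FPKM against 0.412 and 0.299 FPKM, and IL18RAP at most 0.223 FPKM, both below the filter. IFNB1, the interferon gene that TICAM1 signalling induces, was between 0 and 0.188 FPKM with overlapping groups.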
